A study of Saccharomyces cerevisiae with 21 samples.

Results

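The loss of Hel2 was followed in yeast cells that also lacked Slh1, Dom34 and Ski2, on a reporter mRNA that stalls ribosomes. The comparison takes the 2 monosome libraries of hel2slh1dom34ski2 (hel2Δ slh1Δ dom34Δ ski2Δ) and the 2 of slh1dom34ski2 (slh1Δ dom34Δ ski2Δ), chosen by strain label and as monosome libraries by title and columns, 4 of the 21 samples of the series. Hel2 is an E3 ubiquitin ligase that recognises collided ribosomes and ubiquitinates their small subunits. Slh1 is a helicase of the complex that dissociates ribosomes marked in this way, Dom34 rescues ribosomes that have run to the end of a broken mRNA, and Ski2 is needed for the exosome to degrade mRNA from its 3′ side. When collided ribosomes are not cleared, the mRNA can be cut within the queue by the endonuclease Cue2, and a ribosome that reaches the new end protects an unusually short fragment.

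All strains were derived from BY4741, a haploid MATa laboratory strain, and both groups carry the deletions of SLH1, DOM34 and SKI2 and a galactose-inducible GFP-2A-FLAG-HIS3 reporter with 12 CGA codons at ADE2. They differ in the deletion of HEL2 (YDR266C, chromosome IV, 1000104 to 1002023 in R64), which the hel2Δ slh1Δ dom34Δ ski2Δ strain adds. Each group is 1 strain. Nothing says that its 2 libraries came from separate cultures, so the spread between them may be technical. The tables hold reads on the reporter only, so neither the deletions nor the amount of reporter mRNA could be checked, and more mRNA cannot be told apart from more ribosomes on each mRNA. For this reason values are given in rpm (reads scaled to the depth of the library) and also per reporter, as a ratio to what the same library holds far upstream in 21 and 28 nt RPFs.

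Ribosome-protected fragments (RPFs) come in 3 sizes. The 21 nt RPFs are left by ribosomes with an open A site, the 28 nt RPFs by ribosomes with an occupied one, and the 16 nt RPFs by ribosomes at the end of a cut mRNA. The 16 nt RPFs were placed by their 3′ end and the others by their A site. Positions are counted from 0 at the start of the second CGA codon, which puts the tract at -3 to 32. The stall is CGA codons 2 to 5 (0 to 11), the queue is the 300 nt before the tract, far upstream is everything before the queue, and downstream runs from 33 to the last codon before the stop codon at 417. The sum over the queue and the tract is called the window.

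The libraries without Hel2 held 3179018 reads in replicate 1 and 11739476 in replicate 2, and those with Hel2 held 12634641 and 9698106. In these, 3 reads, the least that was read as a level, correspond to 0.237 to 0.944 rpm. Replicate 1 without Hel2 stood apart in its reading frame. Of its far upstream 28 nt RPFs, 55.6% had the A site on the second nt of a codon and 30.2% on the third, compared with 66.1 to 74.1% and 13.5 to 16.2% in the other 3 libraries. Its single positions are therefore spread over neighbouring nt, and values below are summed over codons or over the 5 nt centred on a site. One library with Hel2, replicate 2, carries a range of 40 to 80 nt in its labels, though its title and columns are those of a monosome library, and it was used as such.

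The stretch of recoded HIS3 before the tract is printed because the cut sites and the queue lie in it. Of its 276 nt, 226 (81.9%) match HIS3 of the genome (chromosome XV, 721946 to 722221 in R64). The 10 codons with the named 16 nt sites are in capitals in the first 2 lines, and the CGA tract in the third.
Queue, -183 to -64: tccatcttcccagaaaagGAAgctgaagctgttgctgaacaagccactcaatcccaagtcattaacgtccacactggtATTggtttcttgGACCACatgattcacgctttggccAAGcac
Queue, -63 to -4: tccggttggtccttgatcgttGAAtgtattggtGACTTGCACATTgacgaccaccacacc
Tract and 27 nt after it, -3 to 59: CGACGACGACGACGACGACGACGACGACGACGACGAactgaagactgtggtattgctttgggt
The 27 nt after the tract again belong to HIS3.

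The short fragments that mark cut mRNA were scarce without Hel2. Over the window, 16 nt RPFs came to 321 and 289 rpm without Hel2 and 4961 and 5130 rpm with it, a ratio of 16.6 between the means. The log2 difference was -4.05 (-3.95 and -4.15 within the 2 sets of replicates). At -30 to -19, behind the stall, 16 nt RPFs were 20.1 and 44.4 rpm without Hel2 and 1026 and 949.7 rpm with it (log2 difference -5.00).
Both libraries without Hel2 lay below both libraries with it. With 2 libraries against 2, the exact permutation test cannot go below p = 0.333 (two-sided). That p was reached in the 13 of 17 comparisons of sums, shares and ratios in which the groups did not overlap, and it became 0.436 after Benjamini-Hochberg adjustment over the 17. None of these comparisons passed 0.05.

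Codon by codon, the loss passed a test. In a limma fit over 14 monosome libraries of 8 strains, 16 nt RPFs fell in 69 of 130 tested codons (53.1% of them, Benjamini-Hochberg adjusted p under 0.05) and rose in none (0%). None rose at an unadjusted p under 0.05 either, and edgeR on the recovered reads called 66 codons lower and 0 higher. A codon had to reach a mean of 0.5 rpm over the 14 libraries, which one that is high only in slh1Δ dom34Δ ski2Δ can do, so that the filter favours codons that fall. Without the filter, limma called 78 of 486 codons lower and 3 higher. Within the queue 52 of 64 tested codons fell, and 63 of the 64 had a difference below 0. Far upstream 16 of 55 fell. The 4 tested codons of the tract had a median difference of 0.85 on the log2 scale and the 6 tested downstream one of -0.09. The codon at -42 (GAA, glutamate) fell most, with 2.83 and 7.33 rpm without Hel2 and 744 and 941 rpm with it (log2 difference -7.49, SE 0.81, limma adjusted p = 5.51e-06). It was followed by the codons at -153 (-6.95), -114 (-6.80), -84 (-6.35) and -93 (-6.28), all past the threshold (limma, largest adjusted p = 0.000263). At -153 the libraries without Hel2 held 0 and 0.596 rpm, and at -114 0.315 and 5.11 rpm. In replicate 1 both values are below 3 reads, so the sizes at these 2 codons depend on the pseudocount of 0.1 rpm. At -114 the differences within the sets were -8.96 and -4.64.

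Among the highest sites the fall was uneven. Summed over 5 nt, the site at -69 (AAG, lysine) held 8.18 and 15.0 rpm without Hel2 and 284 and 827 rpm with it. The site at -105 (ATT, isoleucine) held 14.5 and 30.9 rpm without Hel2 and 622 and 287 rpm with it. At -21 (ATT), the values were 13.2 and 27.7 rpm without Hel2 and 709 and 705 rpm with it. At all 3 sites both libraries without Hel2 lay below both with it, although the replicates with Hel2 were themselves unequal at -69 and -105.
At -30 (GAC, aspartate), 16 nt RPFs were 6.29 and 7.33 rpm without Hel2 and 214 and 165 rpm with it. At -24 (CAC, histidine), they were 12.6 and 23.3 rpm without Hel2 and 73.1 and 62.1 rpm with it. The ratio of the means, with Hel2 over without, ran from 3.77 at -24 to 156 at -42 over the 10 sites. Apart from the 4 sites from -30 to -21, these were picked as the highest by the mean of the 4 libraries. That mean comes mostly from the libraries with Hel2, so the fall at the picked sites was largely fixed by the choice.

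The 16 nt RPFs that were left without Hel2 had another layout. Those on CGA codons 2 to 5 came to 99.1 and 49.2 rpm without Hel2 and 38.1 and 41.9 rpm with it, so that the libraries without Hel2 were the higher ones in the tract. Per reporter these groups overlapped. Far upstream, 16 nt RPFs were 82.4 and 60.2 rpm without Hel2 and 198 and 199.9 rpm with it (log2 difference -1.48). There, 77.3 and 78.0% of the 16 nt RPFs with Hel2 ended on the first nt of a codon, compared with 34.0 and 51.6% without it. The 34.0% belongs to replicate 1, which stood apart in its reading frame. In strains with Slh1 this share was 54.2 and 57.2% in hel2Δ dom34Δ ski2Δ and 48.2 and 46.6% in dom34Δ ski2Δ. A share near 51.6% was thus not particular to the loss of Hel2.

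**Figure D1:**
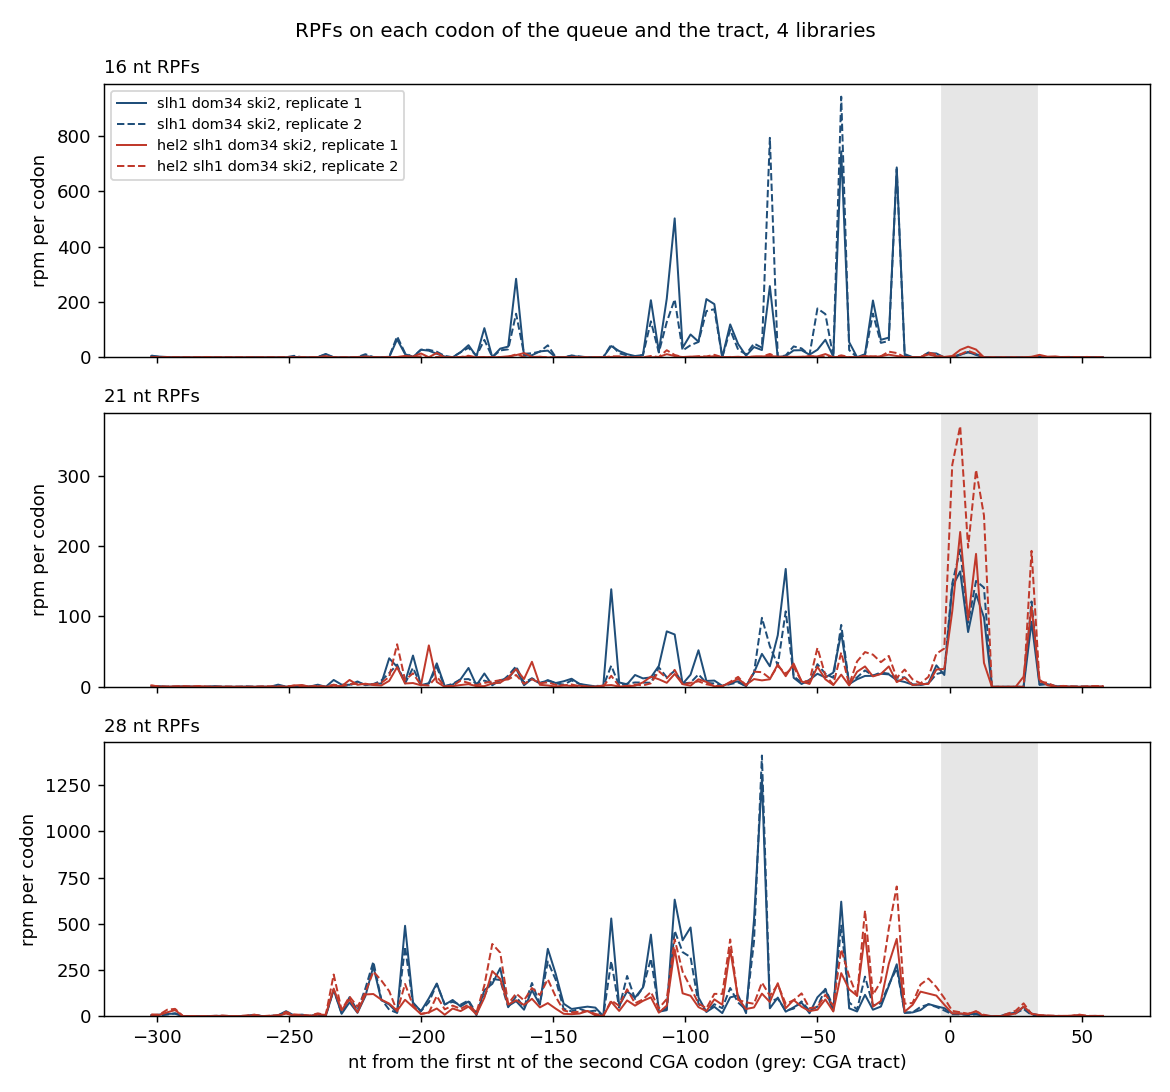
Fragments (rpm, linear axis) on each codon from 300 nt before the CGA tract to just after it, in panels for 16, 21 and 28 nt RPFs, with a line for each of the 4 libraries and the tract in grey. The 16 nt peaks with Hel2, up to 941 rpm at -42, are missing without it. The 28 nt peak at -72, of 1288 and 1410 rpm with Hel2, stands at 122 and 182 rpm without it.

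At the stall itself ribosomes remained. The 21 nt RPFs on CGA codons 2 to 5 were 611 and 1191 rpm without Hel2 and 516 and 583 rpm with it, a log2 difference of 0.64 (0.24 and 1.03 within the sets). The libraries did not overlap, but replicate 2 without Hel2 carried most of the difference, which was 0.16 on the log2 scale without that library. Per reporter the order was lost (-0.07 on the log2 scale), with 0.238 and 0.335 without Hel2 and 0.301 and 0.292 with it.
Within the stall the codons were uneven. The third CGA codon (at 3) held the most in all 4 libraries, with 219.9 and 370 rpm without Hel2 and 164 and 195 rpm with it. The fifth (at 9) held 189 and 308 rpm without Hel2 and 132 and 150 rpm with it. The second (at 0) held 107 and 315 rpm without Hel2 and 142 and 147 rpm with it, so that replicate 1 without Hel2 lay below both libraries with it. The fourth (at 6) was the lowest of the 4 in each library, with 94.998 and 198 rpm without Hel2 and 77.7 and 90.9 rpm with it.
At the sixth codon (at 12), replicate 1 without Hel2 held 34.0 rpm, compared with 243 rpm in replicate 2 and 98.5 and 141 rpm with Hel2. At 14 positions of the tract, between 14 and 28, no 21 nt RPF is listed in any library, so the rest of the tract could not be read in full.
Of the 21 and 28 nt RPFs at the stall, 21 nt RPFs made up 89.8% (95% Wilson interval 88.4 to 91.0%) and 93.0% (92.5 to 93.4%) without Hel2. With Hel2 they made up 90.7% (90.0 to 91.4%) and 94.0% (93.3 to 94.5%). These shares overlapped between the strains, with a difference of -0.96 percentage points (exact permutation test, n = 2 against 2, p = 0.667). The intervals cover counting error only, since PCR copies of a read are not separate molecules.

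Immediately behind the stall there were more ribosomes without Hel2. At -30 to -19, the place of the first ribosome that runs into the stalled one, 28 nt RPFs were 837 and 1481 rpm without Hel2 and 533 and 559 rpm with it. The log2 difference was 1.03 (0.65 and 1.40 within the sets), and 0.32 per reporter. Replicate 2 without Hel2 carried most of the difference per reporter. Set against the 21 nt RPFs at the stall of the same library, they stood at 1.37 and 1.24 without Hel2 and 1.03 and 0.959 with it. Both ratios without Hel2 were the higher ones.
Over the last 30 nt before the tract, 28 nt RPFs were 1736 and 2725 rpm without Hel2 and 840.3 and 979 rpm with it (log2 difference 1.26). Per reporter these values were 0.677 and 0.766 without Hel2 and 0.490 and 0.490 with it, a log2 difference of 0.56. The excess was spread over several codons. The codon at -33 (GGT, glycine) held 446 and 571 rpm without Hel2 and 116 and 214 rpm with it. At -21 (ATT) there were 418 and 702 rpm without Hel2 and 281 and 259.5 rpm with it, and at -12 (CAC) 133 and 171 rpm without Hel2 and 33.2 and 50.2 rpm with it.

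Farther back the order turned. From -153 to -124, 28 nt RPFs were 293 and 567 rpm without Hel2 and 1430.4 and 1001 rpm with it. From -123 to -94 they were 1050.01 and 1455 rpm without Hel2 and 2512 and 2052 rpm with it, and from -93 to -64 they were 1103 and 1395 rpm without Hel2 and 2276 and 2384 rpm with it. Each of these 3 stretches was lower in both libraries without Hel2 than in both with it, on either scale. The 30 nt from -213 on were lower as well, with 390 and 672 rpm without Hel2 and 1152 and 982 rpm with it. The fall was not continuous. In rpm the groups overlapped in the 30 nt from -63 on, with 852 and 1231 rpm without Hel2 and 1128 and 1035 rpm with it. They also overlapped in the 30 nt from -183 on, from -243 on and from -273 on. At the far end of the queue, in the 30 nt from -303 on, the libraries without Hel2 were the higher ones. There, 28 nt RPFs were 68.3 and 103 rpm without Hel2 and 46.5 and 38.8 rpm with it.
As a whole, 28 nt RPFs in the queue came to 7131 and 10745 rpm without Hel2 and 11207 and 10413 rpm with it, and the groups overlapped (log2 difference -0.30, exact permutation test, n = 2 against 2, p = 0.667). Per reporter they did not overlap, with 2.78 and 3.02 without Hel2 and 6.53 and 5.22 with it (log2 difference -1.01). Within the queue the shares shifted. Its last 30 nt held 24.3 and 25.4% of its 28 nt RPFs without Hel2 and 7.50 and 9.40% with it. The stretch from -153 to -34 held 46.3 and 43.2% without Hel2 and 65.6 and 62.2% with it. The part farther back held 29.4 and 31.4% without Hel2 and 26.9 and 28.4% with it, so that the lower share without Hel2 was that of the middle stretch. These shares do not depend on how libraries are scaled.

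**Figure D2:**
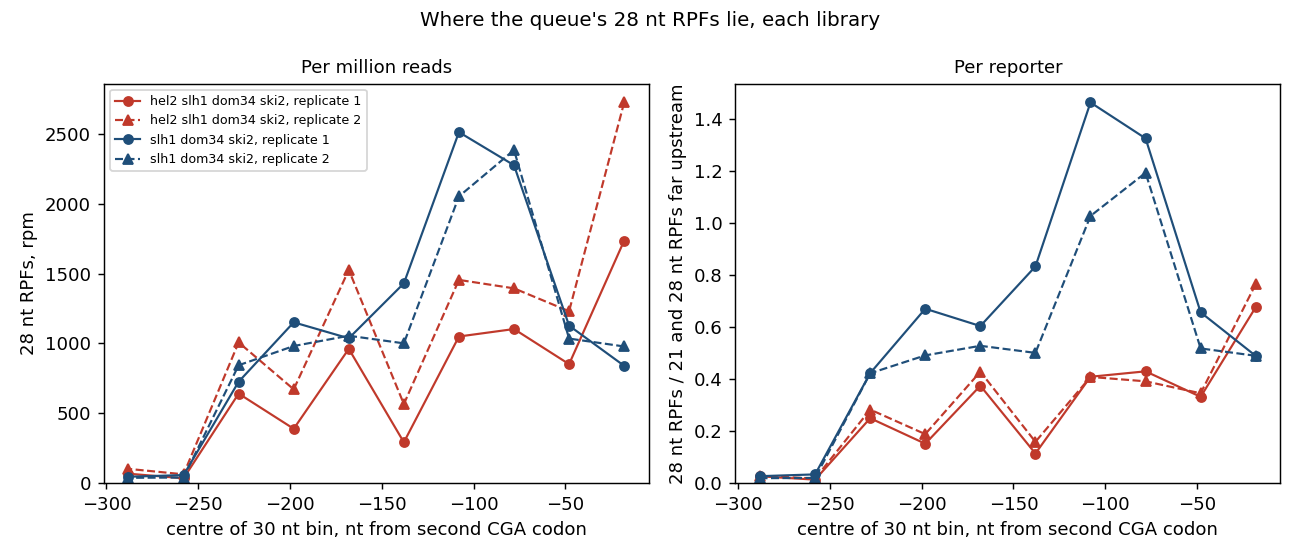
28 nt RPFs in 10 bins of 30 nt over the queue, in rpm on the left and per reporter (over the far upstream sum of 21 and 28 nt RPFs) on the right, with a line for each library against the centre of the bin in nt from the second CGA codon. Without Hel2 the bin next to the tract is the highest (1736 and 2725 rpm). With Hel2 the bins between -123 and -64 are the highest, and per reporter the 2 libraries without Hel2 run close together.

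By limma, 28 nt RPFs fell in 4 of 446 tested codons (0.897%) and rose in 1 (0.224%), and all 4 that fell lie in the queue. The queue holds 96 of the tested codons. At an unadjusted p under 0.05, 18 were lower and 100 higher. The balance of the calls turned with the setting, to 5 lower and 9 higher with a pseudocount of 1 rpm, 5 and 6 with the replicate block, and 5 and 7 in the 4 libraries alone. The largest fall was at -72 (GCC, alanine), from 1288 and 1410 rpm with Hel2 to 122 and 182 rpm without it (log2 difference -3.17, SE 0.53, limma adjusted p = 0.00199). Next to it, the codon at -75 (TTG, leucine) fell from 521 and 404 rpm to 47.5 and 67.3 rpm (-3.02, limma adjusted p = 0.00282). The codons at -129 (CAA, glutamine) and -198 fell by 2.28 and 2.10 on the log2 scale (limma adjusted p = 0.0118 for both). The codon that rose, at -801, held 13.8 and 12.4 rpm without Hel2 and 0.95 and 3.82 rpm with it.
None of the 5 was called without replicate 1 lacking Hel2, nor without replicate 1 with Hel2, when limma called 0 codons in either fit (121 and 44 at an unadjusted p under 0.05). Scaled per reporter, limma called 18 codons lower and 1 higher. The number called thus rests on single libraries and on the scale, while the differences at -72 were -3.39 and -2.95 on the log2 scale within the sets.

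The codon at -72 lies 10 codons before the highest 16 nt site, at -42, which is the distance that also separates the stretch from -30 to -19 from the stall. The same distance was read for all 10 sites, a choice made after the values were seen. At this distance before the site, 28 nt RPFs were lower without Hel2 at 7 of 10 sites, and at 6 both libraries without Hel2 lay below both with it. Of the 96 queue codons tested, 41 were lower without Hel2, and in 28 (29.2%) both libraries without Hel2 lay below both with it. Before -69, the codon at -99 (TTC, phenylalanine) held 111 and 156 rpm without Hel2 and 480.1 and 319.8 rpm with it. Before -30, the codon at -60 went the other way, with 88.1 and 86.5 rpm without Hel2 and 48.3 and 41.3 rpm with it. The 16 nt and 28 nt RPFs at a site come from the same libraries, so the pairs are a description and not a test.

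The 21 nt RPFs of the queue came to 145 and 288 rpm in the last 30 nt without Hel2, compared with 125 and 133 rpm with it. Per reporter these groups overlapped (log2 difference -0.04), unlike those of 28 nt RPFs in the same stretch. From -153 to -124 they were 11.95 and 32.5 rpm without Hel2 and 187 and 65.2 rpm with it. From -93 to -64 they were 91.2 and 112 rpm without Hel2 and 202 and 229 rpm with it. The last 30 nt of the queue held 20.2 and 29.0% of its 21 nt RPFs without Hel2 and 8.37 and 11.9% with it.
One codon of 323 fell by limma (0.31%), the serine codon TCC at -63, with 15.1 and 18.8 rpm without Hel2 and 167 and 107 rpm with it (log2 difference -2.98, SE 0.55, limma adjusted p = 0.00393). None rose (0%), with 16 codons higher at an unadjusted p under 0.05 and 3 higher by edgeR. The call at -63 was lost without either replicate 1, with limma adjusted p = 0.0943 without the one lacking Hel2 and 0.113 without the one with Hel2. Both of those fits called 0 codons (32 and 19 at an unadjusted p under 0.05), while 24 were called without replicate 2 lacking Hel2, 20 of them lower, and 3 without replicate 2 with Hel2.
In the queue, 21 nt RPFs made up 9.17 and 8.45% of the 21 and 28 nt RPFs without Hel2 and 11.8 and 9.69% with it, a difference of -1.91 percentage points. Far upstream they made up 17.3 and 20.46% without Hel2 and 23.0 and 22.3% with it. In both stretches the libraries without Hel2 were the lower ones.

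**Figure D3:**
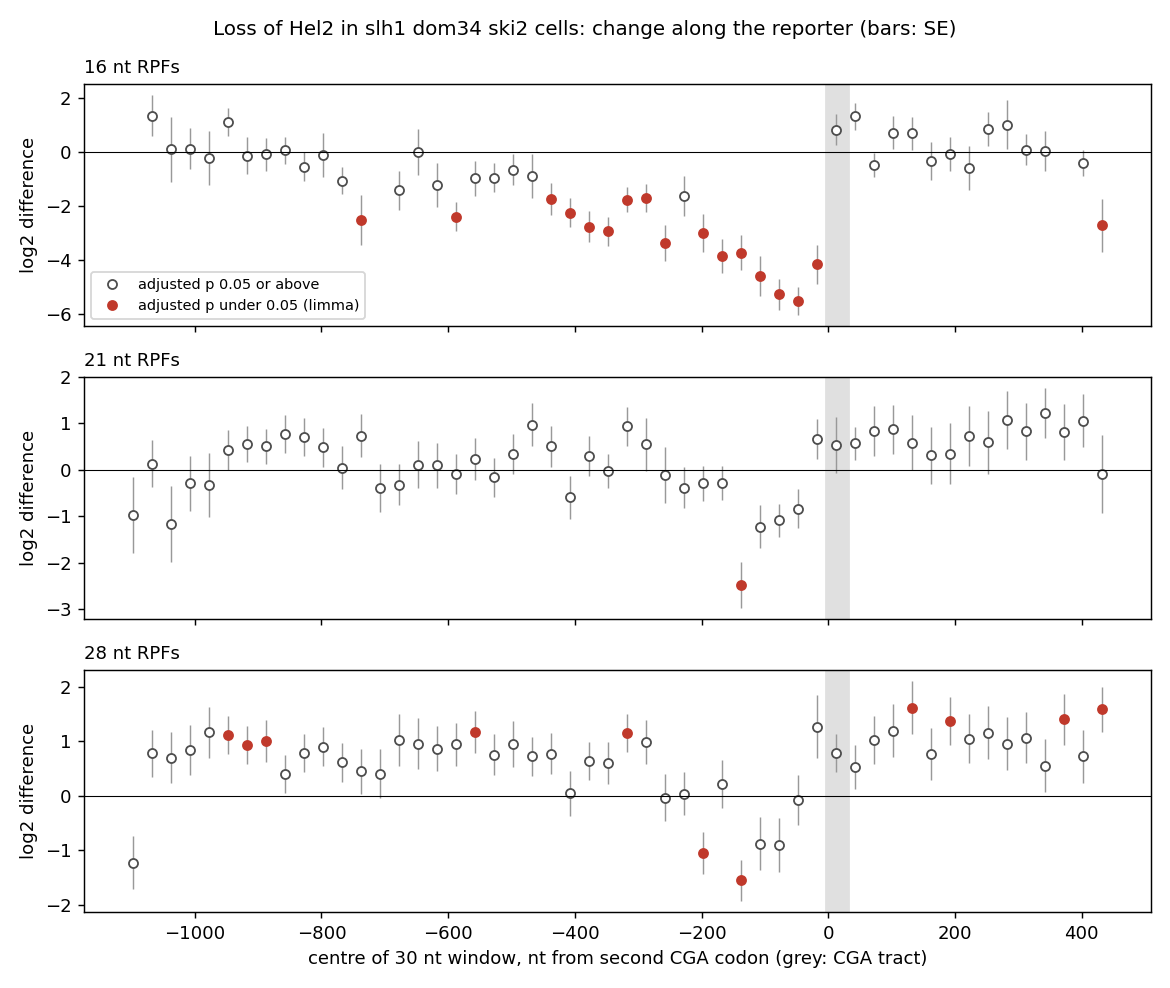
Log2 difference, libraries without Hel2 against libraries with Hel2 in slh1Δ dom34Δ ski2Δ, in 30 nt windows along the reporter (points, with SE as bars), in panels for 16, 21 and 28 nt RPFs. Filled points are past an adjusted p of 0.05 by limma. The 16 nt windows before the tract lie below 0 over the queue and the stretch just before it, and most 28 nt windows far upstream and downstream lie above 0, while several in the queue lie below it.

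Before the queue, more ribosomes were measured without Hel2. Far upstream, 21 and 28 nt RPFs were 2563 and 3557 rpm without Hel2 and 1715 and 1996 rpm with it, a log2 difference of 0.71 (0.58 and 0.83 within the sets). Differences per reporter are lower than those in rpm by this shift, and by more or less where sums are low, since a pseudocount of 1 rpm enters only the differences in rpm. More of it lay in the 28 nt RPFs. Of 253 far upstream codons tested for them, 211 had a difference above 0, with a median of 0.79 on the log2 scale, beside 0.72 over all 446 tested codons. For 21 nt RPFs the far upstream median was 0.18, beside 0.16 over all 323.
The highest far upstream position, -338 (AAA, lysine), held 194 and 256 rpm over 5 nt without Hel2 and 141 and 152 rpm with it. At -311 (CCC, proline), the values were 67.3 and 95.8 rpm without Hel2 and 23.4 and 36.7 rpm with it. In 30 nt windows, limma called 9 of 52 higher for 28 nt RPFs (17.3%) and 2 lower (3.85%). Of the 9, 5 lie far upstream, and 4 lie after the tract. Of the 52 windows, 27 lie far upstream, 10 in the queue and 15 from the tract on. The 2 lower ones, at -213 and -153, lie in the queue.
In the same 30 nt windows, 16 nt RPFs were lower in 17 of 49 (34.7%) and 21 nt RPFs in 1 of 52 (1.92%), the one at -153 as well.

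Past the tract, more ribosomes were also measured without Hel2. From the tract to the stop codon, 21 and 28 nt RPFs were 394 and 577 rpm without Hel2 and 231 and 253 rpm with it, a ratio of 2.002 between the means. The log2 difference was 0.97 (0.76 and 1.18 within the sets). Over the first 100 nt downstream they were 183 and 275 rpm without Hel2 and 108 and 124 rpm with it (log2 difference 0.95). The density downstream, divided by the density far upstream, was 0.324 and 0.342 without Hel2 and 0.285 and 0.268 with it, a log2 difference of 0.27 with no overlap.
No single position stood out. The highest one downstream, 76 (GCC), held 25.8 and 32.8 rpm over 5 nt without Hel2 and 12.7 and 15.1 rpm with it, and 86 (GCC) held 17.3 and 41.6 rpm without Hel2 and 11.2 and 16.4 rpm with it. Of the 86 downstream codons tested for 28 nt RPFs, 8 had a difference below 0, with a median of 0.89 on the log2 scale. Over all 446 tested codons, 92 had a difference below 0, with a median of 0.72. On the stop codon, 28 nt RPFs were 5.98 and 10.2 rpm without Hel2 and 3.40 and 1.75 rpm with it. The share of 21 nt RPFs downstream overlapped between the strains, at 23.5 and 30.5% without Hel2 and 26.0 and 34.3% with it.

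**Figure D4:**
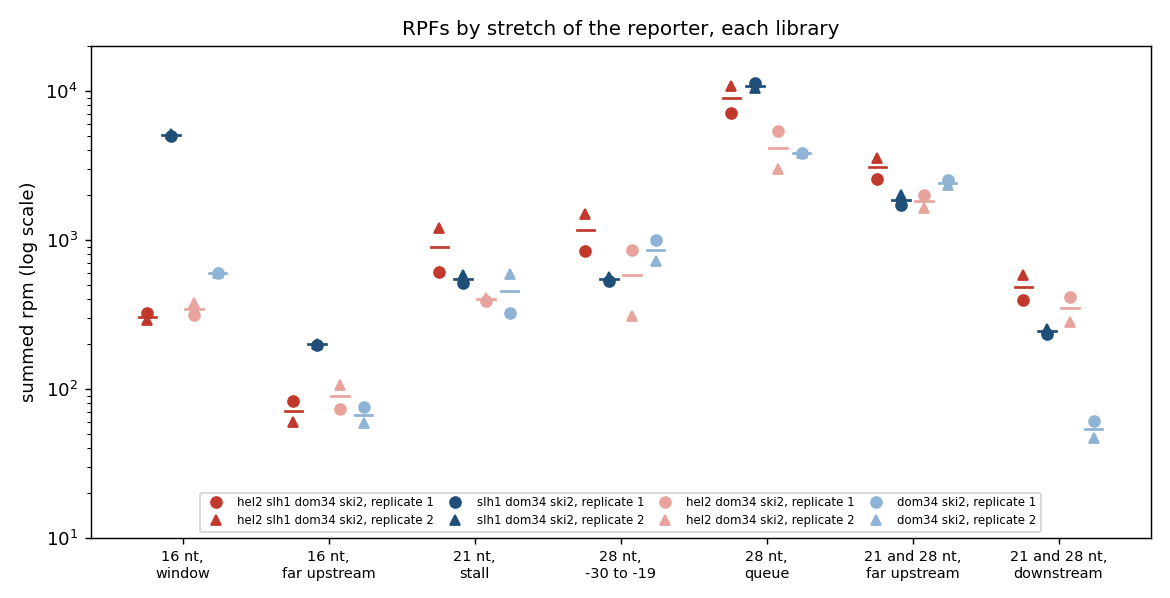
Summed rpm (log axis) in 7 stretches of the reporter for each library, as circles for replicate 1 and triangles for replicate 2, with the mean as a bar, in the 2 strains lacking Slh1 and in the 2 strains with Slh1. Without Hel2, 305 rpm of 16 nt RPFs are in the window where Slh1 is lacking and 342 rpm where it is present. Downstream, 485 rpm and 347 rpm were measured without Hel2, beside 242 and 53.7 rpm with it.

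The same loss in cells with Slh1, hel2dom34ski2 (hel2Δ dom34Δ ski2Δ) against dom34ski2 (dom34Δ ski2Δ) with 2 libraries each, differed in size and partly in direction. The 16 nt RPFs of the window were 311 and 374 rpm without Hel2 and 595 and 596 rpm with it, a log2 difference of -0.80. So without Hel2 the 2 backgrounds overlapped in the window, and the larger distance between them lay in the cells with Hel2. In the queue alone, without Hel2, they did not overlap, with 218 and 239 rpm lacking Slh1 and 284 and 321 rpm with Slh1. At -30 to -19 these values were 20.1 and 44.4 rpm lacking Slh1 and 53.0 and 63.8 rpm with Slh1. By limma the effect of losing Hel2 differed between the backgrounds in 54 of 130 codons for 16 nt RPFs, all 54 further down in cells lacking Slh1 (41.5%, and 0% further up, with 0 at an unadjusted p under 0.05 and 0 by edgeR). The filter favours this direction too, since a codon that is high only in slh1Δ dom34Δ ski2Δ can pass it.
A difference further down is lower than the one in cells with Slh1 and can still be a rise. For 21 nt RPFs the effect of losing Hel2 differed in 17 codons further down (5.26% of 323) and 2 further up (0.619%). Of the 17, 15 lie in the queue and 2 downstream, stretches that hold 82 and 32 of the 323 tested codons. At -108 (GGT), for example, 21 nt RPFs were 5.66 and 12.1 rpm without Hel2 and 78.8 and 13.5 rpm with it in cells lacking Slh1, and 19.4 and 39.0 rpm without Hel2 and 6.11 and 4.84 rpm with it in cells with Slh1. For 28 nt RPFs 6 codons differed further down (1.35% of 446) and 8 further up (1.79%). Of those further up 6 lie far upstream, as do 253 of the 446 tested codons. At -72, 28 nt RPFs were 87.1 and 50.1 rpm without Hel2 and 64.2 and 75.5 rpm with it in cells with Slh1. Among the strains of these 2 comparisons, all lacking Dom34 and Ski2, this peak was thus high only in slh1Δ dom34Δ ski2Δ. Its interaction passed the threshold (log2 -3.10, SE 0.75, limma adjusted p = 0.0415).
These counts rest on few libraries. For 21 nt RPFs limma called 0 codons without replicate 1 of hel2Δ slh1Δ dom34Δ ski2Δ, replicate 1 of slh1Δ dom34Δ ski2Δ or replicate 2 of hel2Δ dom34Δ ski2Δ (79, 41 and 48 at an unadjusted p under 0.05). For 28 nt RPFs it called 0 without either of those replicates 1 or without either dom34Δ ski2Δ library (132, 82, 112 and 88 at an unadjusted p under 0.05), and 1 without replicate 2 of slh1Δ dom34Δ ski2Δ. For 16 nt RPFs 31 to 48 codons were called over the 8 libraries left out in turn. Per reporter limma called 53 codons for 21 nt RPFs (52 further down) and 95 for 28 nt RPFs (88 further down).

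Downstream, the loss of Hel2 went with a larger difference where Slh1 was present. There, 21 and 28 nt RPFs from the tract to the stop codon were 414 and 281 rpm without Hel2 and 60.6 and 46.8 rpm with it, a log2 difference of 2.66, beside 0.97 in cells lacking Slh1. Over far upstream density the log2 differences were 3.09 and 0.27. The 2 codons of 21 nt RPFs and 3 of 28 nt RPFs that differed downstream, among them 33 just after the tract, were all further down in cells lacking Slh1. Apart from the codon at 33, both dom34Δ ski2Δ libraries held fewer than 3 reads at these codons. The sizes of the differences there depend on the pseudocount of 0.1 rpm. At 33, 28 nt RPFs were 0.413 and 0.440 rpm in dom34Δ ski2Δ. The downstream sums themselves were not tested between the backgrounds.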

How the data were processed

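The authors treated lysates with RNase I, isolated monosomes on sucrose gradients, sequenced fragments of 15 to 34 nt, trimmed adapters, removed ribosomal RNA and kept reads that map to 1 place with STAR (R64, sacCer3). They deposited RPM values for each nt of the reporter (reads over library depth), placing reads of 15 to 17 nt (16 nt RPFs) by 3′ end and those of 20 to 22 nt (21 nt RPFs) or 27 to 32 nt (28 nt RPFs) by A site. A repeat that maps to several places, as within the CGA tract, can be lost by this mapping. All values (100%) were whole multiples of 1 read, within 0.1 reads, which gave reads and depth. Of the columns, 42 were used, and 6 columns of single libraries could not be matched to 1 sample and were left out, as were disome and trisome columns.

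Sums were compared as log2(rpm + 1) with exact permutation tests. Codons in frame (3 nt), with a mean of at least 0.5 rpm, were tested by limma 3.58.1 on log2(rpm + 0.1) (trend, threshold of 0.05 after Benjamini-Hochberg adjustment) over 14 monosome libraries of 8 strains, or only the 4 libraries compared. Such fold changes understate low values. edgeR 4.0.16 (quasi-likelihood) was run on recovered reads. The functions were tested on simulated data. Replicates of a strain differed by more than sampling noise (chi-square per degree of freedom 9.57 to 34.2).

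The named positions are the 4 sites from -30 to -21, the 8 highest 16 nt positions of the window, 8 of 21 nt RPFs in the tract, 8 of 28 nt RPFs in the queue, 4 downstream and 4 far upstream, by the mean of the 4 libraries, and for windows the 5 largest changes past the threshold in each direction that agree in sign in both sets. Other codons were named after their values were seen. The comparison, stretches and rules were chosen with earlier results of these data known. Alternatives were other pseudocounts, no filter, values per reporter, other stretches, 30 nt windows, a replicate block and leaving out each library.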

Additional observations from a re-analysis of the deposited data

Results flagged for a closer look

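Losing Hel2 had another effect in cells with Slh1 than in cells lacking it, by the limma interaction, in 54 codons for 16 nt RPFs, 19 for 21 nt RPFs and 14 for 28 nt RPFs. Another 5 results moved one way in both sets of one background and the other way in both sets of the other, and these differences were not tested. The 21 and 28 nt RPFs far upstream were higher without Hel2 in cells lacking Slh1 (log2 0.71) and lower in cells with Slh1 (log2 -0.41), a distance of 1.12. The share of 21 nt RPFs in the queue was lower by 1.91 percentage points in cells lacking Slh1 and higher by 6.31 points in cells with Slh1, a distance of -8.22 points, and in the latter it was 10.6 and 18.8% in the 2 libraries without Hel2. The queue density over the far upstream density was lower in cells lacking Slh1 (log2 -1.04) and higher in cells with Slh1 (log2 0.58), a distance of -1.62. Behind the stall, at -30 to -19, 28 nt RPFs were higher without Hel2 in cells lacking Slh1 (log2 1.03) and lower in cells with Slh1 (log2 -0.71, where the groups overlapped), a distance of 1.74. Their ratio to the 21 nt RPFs at the stall was higher in cells lacking Slh1 (log2 0.39) and lower in cells with Slh1 (log2 -0.58, with overlapping groups), a distance of 0.97.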

How the results depend on the processing

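Over all alternatives for sums, shares and ratios, 105 values kept their direction and 6 did not. The 105 include the replicate block of each of the 17 comparisons, which cannot change the difference. Per reporter, 21 nt RPFs on CGA codons 2 to 5 turned to -0.069. The called codons depended on the setting. For 28 nt RPFs, 5 codons became 14 with a pseudocount of 1 rpm, 9 by edgeR, 11 with the replicate block, 19 per reporter, 12 in the 4 libraries alone and 11 in 30 nt windows. For 21 nt RPFs, 1 became 17 with that pseudocount, 2 without a filter, 7 by edgeR, 4 with the replicate block, 25 per reporter and 0 in the 4 libraries alone (limma, 39 at an unadjusted p under 0.05). For 16 nt RPFs, 69 became 17 in 30 nt windows.
For codons where the effect differed with Slh1, 16 nt RPFs had 15 in 30 nt windows. The 19 for 21 nt RPFs became 53 per reporter. The 14 for 28 nt RPFs became 27 with the pseudocount of 1 rpm, 4 without a filter, 41 by edgeR, 33 with the replicate block, 95 per reporter and 22 in 30 nt windows. The cause was not tested, except that fewer windows were tested at 30 nt.

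Leaving out each library in turn gave -4.12 to -3.97 for 16 nt RPFs in the window, -5.55 to -4.44 at -30 to -19 and -1.71 to -1.26 far upstream. It gave 0.16 to 1.12 for 21 nt RPFs at the stall, 0.62 to 1.44 for 28 nt RPFs at -30 to -19, -0.60 to -0.01 for 28 nt RPFs in the queue and -0.56 to 0.0724 for 21 and 28 nt RPFs in the window. Far upstream 21 and 28 nt RPFs ranged from 0.47 to 0.94, in the 100 nt downstream from 0.66 to 1.24 and to the stop codon from 0.70 to 1.25. The share of 21 nt RPFs ranged from -2.58 to 0.66 points at the stall, -2.94 to -0.88 in the queue, -5.31 to -2.19 far upstream and -7.30 to 0.97 downstream. The ratio of 28 nt RPFs behind the stall to 21 nt RPFs at the stall ranged from 0.32 to 0.46, the queue density from -1.22 to -0.86 and the downstream density from 0.23 to 0.31. Called codons ranged from 48 to 60 for 16 nt, 0 to 24 for 21 nt and 0 to 6 for 28 nt RPFs, and for the difference with Slh1 from 31 to 48, 0 to 25 and 0 to 23. All 121 values of the 11 named codons kept their direction. These codons were chosen from the same data, as the largest changes that agree in sign in both sets. Their direction was thus largely fixed by the choice.

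Replicate numbers follow the deposited set, and nothing says that same-numbered libraries were made together. With the replicate block the mean difference of 2 pairs is unchanged by arithmetic, at -4.05 for 16 nt RPFs in the window, and the exact paired permutation test cannot go below p = 0.5. Same-numbered libraries deviated with r = -0.16 for 16 nt, 0.06 for 21 nt and 0.00 for 28 nt RPFs over codons. With the pairing crossed, an alternative chosen after seeing the data, 69, 1 and 7 codons were called. Depth limits replicate 1 without Hel2, where 3 reads are 0.944 rpm.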
